A study of Mus musculus with 115 samples.

Results

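Rnf149 and its closest membrane-bound relatives were followed in prostates from F2 males of a TRAMP by WSB cross. Of the 45699 genes in the expression table, 5 were described here. They are Rnf149, the noncoding gene Gm15832 that overlaps its 3′ end, and the autosomal paralogs Rnf13, Rnf130 and Rnf167. They were taken by name, with earlier results of these data known. All 5 had a mean of at least 1 TPM (a length-scaled share of the transcripts of a library) and were among the 14623 genes tested. Each library of bulk prostate RNA is labelled with a different mouse, and the labels place all of them in 1 group. Every mouse carried the TRAMP transgene, in which a minimal probasin promoter drives the SV40 T antigens in prostate epithelium. F1 parents came from TRAMP females on C57BL/6J and males of the wild-derived strain WSB/EiJ, so the F2 sons carry different mixtures of both genomes. Males were kept to a fixed age or to a humane endpoint, and for small prostates RNA was taken from the ventral lobe alone. The age, F2 genotype and tumor burden of single mice were left out.

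The 4 protein-coding members belong to the PA-RING family of E3 ubiquitin ligases. A protease-associated (PA) domain lies on the lumenal or outer side, a single transmembrane segment follows, and a RING-H2 domain on the cytosolic side recruits an E2 enzyme that carries ubiquitin. Such ligases sit mainly in endosomal and lysosomal membranes and mark membrane or cytosolic proteins for trafficking or destruction. Rnf149 is known to ubiquitinate wild-type Braf, a kinase of the MAP kinase pathway. Rnf167 acts on lysosomes and endosomes and modifies the vesicle SNARE Vamp3. Rnf13 lies in endosomes and has been tied to signalling by the stress sensor Ern1 (IRE1), and Rnf130 is the mouse counterpart of fly goliath. Among the other relatives, Rnf43 and Znrf3 clear Frizzled receptors from the cell surface and Rnf128 (GRAIL) limits T cell activation.

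On GRCm38 in the GENCODE M21 annotation, Rnf149 (ENSMUSG00000048234) lies on the minus strand of chromosome 1 from 39551296 to 39577405, with 2838 exonic bases. Gm15832 (ENSMUSG00000085894) lies on the same strand from 39547570 to 39552002 and is annotated as a processed transcript of 1832 exonic bases. Of these, 707 are also exonic in Rnf149. The library kit did not mark strand and the authors' quantification divides reads between overlapping transcripts, so values of Gm15832 are uncertain where Rnf149 is high. Rnf13 (ENSMUSG00000036503) lies on chromosome 3 from 57736062 to 57835233. Rnf130 (ENSMUSG00000020376, 50025346 to 50104758) and Rnf167 (ENSMUSG00000040746, 70647235 to 70651421) lie on chromosome 11.

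**Figure D1:**
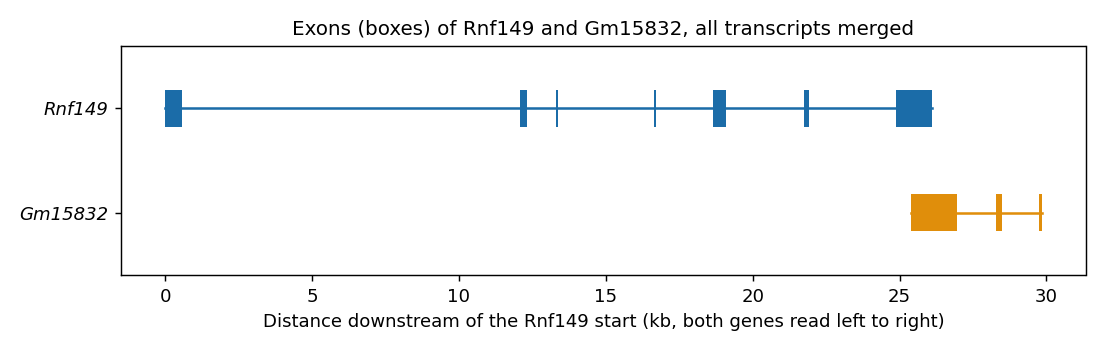
Exons (boxes) of Rnf149 (top) and Gm15832 (bottom), with all transcripts of a gene merged, against the distance in kb downstream of the Rnf149 start. The large first exon of Gm15832 covers the end of the last exon of Rnf149, where the genes share 707 exonic bases.

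The promoter windows of 3 members are printed because their levels behaved differently below: Rnf149 varied most, Rnf167 varied least, and Rnf130 ran against Rnf149 where Rnf149 was highest. RefSeq sequences on GRCm38.p6 were found for 4 of the 5 members and cover 250 bases before to 50 bases after the RefSeq start. Of these starts, only that of Rnf167 is also the GENCODE start given above. Capitals mark the motif TCTCGCGA, searched on both strands (its reverse complement is TCGCGAGA).
Rnf149, chr1:39577298-39577597, minus strand: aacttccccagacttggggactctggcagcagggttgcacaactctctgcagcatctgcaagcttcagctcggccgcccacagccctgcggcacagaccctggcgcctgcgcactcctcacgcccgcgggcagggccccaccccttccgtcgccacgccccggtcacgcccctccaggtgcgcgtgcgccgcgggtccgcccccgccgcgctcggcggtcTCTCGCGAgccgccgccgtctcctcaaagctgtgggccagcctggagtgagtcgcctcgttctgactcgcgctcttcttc
Rnf167, chr11:70646985-70647284, plus strand: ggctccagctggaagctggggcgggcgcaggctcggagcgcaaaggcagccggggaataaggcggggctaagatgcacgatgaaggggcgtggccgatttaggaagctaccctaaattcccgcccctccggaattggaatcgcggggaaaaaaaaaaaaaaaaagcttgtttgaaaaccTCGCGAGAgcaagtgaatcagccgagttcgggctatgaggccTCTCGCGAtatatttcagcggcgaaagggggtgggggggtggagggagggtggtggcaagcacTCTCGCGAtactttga
Rnf130, chr11:50025081-50025380, plus strand: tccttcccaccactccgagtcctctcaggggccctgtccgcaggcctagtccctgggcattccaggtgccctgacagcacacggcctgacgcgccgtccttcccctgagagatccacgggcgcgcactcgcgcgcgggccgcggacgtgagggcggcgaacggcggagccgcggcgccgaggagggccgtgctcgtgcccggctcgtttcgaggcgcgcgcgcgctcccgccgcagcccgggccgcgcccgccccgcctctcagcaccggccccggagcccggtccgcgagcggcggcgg
The motif was chosen after the sequences were read. It matched 1 time in the Rnf149 window, beginning at position -30 from the RefSeq start, and 3 times in the Rnf167 window, at -71, -29 and 35. The GENCODE start of Rnf149 lies further upstream, so its match falls inside a GENCODE exon (39576827 to 39577405). The motif was not found in the windows of Rnf13 or Rnf130, and 0.995% of the 32851 promoter windows of this length hold it. The letters CCAAT, searched on both strands, are in the Rnf13 window 2 times and in the Rnf167 window 1 time, and in 37.4% of all windows. The letters CACGTG were found in none of the 4 windows, against 7.15% of all windows, and GGGCGG on either strand was in all 4, against 35.7%. The Rnf130 window was 78% G or C, higher than 98.1% of all windows, and the Rnf149 window was 71.3% G or C, higher than 92.2%. For Rnf13 and Rnf167 these shares were 59.7% and 57.7%, against a median of 52.7% over all windows. A match of letters is a description and says nothing of a factor.

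Between 10358 and 15824 genes reached 1 TPM in a library, and the 20 genes with the largest share took 48.9% to 81.8% of its TPM. TPM keeps no sequencing depth, so the counting error of each value is unknown. On the first principal component, which held 48.7% of the variance, the libraries fell into separate sets of 79 and 36 (a model with 2 components lowered the BIC by 196, and the components lay apart with an Ashman D of 6.09). All relations between genes below were therefore taken within the 79 or within the 36, and the sets were not tested against each other. Where the gene a relation was set against split a set in the same way, the relation was taken within that split, and within a further split where the other gene still split those libraries. The tissue label was checked with 7 luminal prostate markers, of which 6 reached 1 TPM in at least 50% of libraries. Their summed level ran from 40.96 to 92991 TPM with a median of 5488 TPM. The exception was Pbsn, the mouse gene for probasin. Taken over all libraries, the check does not describe the 36 on their own, where Tgm4 had a median of 1.83 TPM. Sbp, 1 of the 7 markers, alone reached 92090 TPM at its highest and 1 TPM in 61 libraries. The libraries with nearly the same label, W7822 and W78022, had r = 0.955, against 0.974 for the closest pair.

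Over all libraries Rnf149 had the highest median and the widest range of the members. Its level ran from 4.30 to 339 TPM with a median of 56.3 TPM (89.1 ± 80.9 TPM, mean ± SD over all libraries), and the 90th percentile was 27.3 times the 10th. On the log2(TPM + 1) scale its SD was larger than that of 95.99% of the tested genes. Within the 79 libraries it ranged from 9.18 to 339 TPM with a median of 128 TPM. Within the 36 it stayed between 4.30 and 49.2 TPM with a median of 9.89 TPM, so the sets overlap only in the lower range of the 79. In the 36 its median lay below those of Rnf167 (20.8 TPM), Rnf13 (14.2 TPM) and Rnf130 (12.9 TPM). Rnf149 also split the 79 libraries, into 29 between 9.18 and 85.7 TPM and 50 between 94.6 and 339 TPM (Ashman D of 2.95, with the BIC lower by 14.6). No other member split either set.

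The paralogs were held in much narrower ranges. Rnf167 ran from 5.88 to 42.4 TPM with a median of 19.8 TPM (20.4 ± 5.76 TPM), and its 90th percentile was 1.94 times its 10th. Rnf13 ran from 8.68 to 36.7 TPM with a median of 18.8 TPM (19.6 ± 6.65 TPM, 2.43 times between these percentiles). The SD of Rnf167 on the log2 scale was larger than that of only 12.5% of tested genes, and that of Rnf13 larger than 25.4%. Rnf130 was wider, from 5.66 to 74.5 TPM with a median of 14.9 TPM (20.1 ± 13.4 TPM, 4.38 times). Gm15832 was lowest, from 0.47 to 17.8 TPM with a median of 3.40 TPM (4.57 ± 3.38 TPM, 7.54 times), and reached 1 TPM in all but 6 libraries. In the 36 libraries Gm15832 did not exceed 3.40 TPM, while in the 79 its median was 5.36 TPM.

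**Figure D2:**
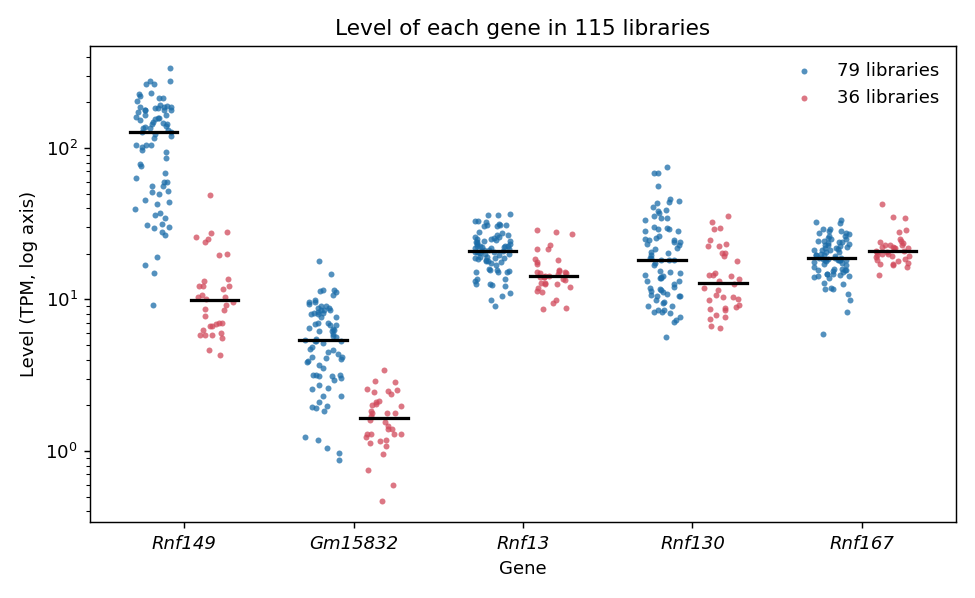
Level of each gene in TPM (log axis), 1 point per library, in blue for the 79 and in red for the 36 libraries into which expression separates, with a black line at the median. Rnf149 spans 4.30 to 339 TPM, while Rnf13 and Rnf167 stay between 5.88 and 42.4 TPM in both sets.

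Because TPM is per length, levels of different genes were compared within each library, first over all libraries together. Rnf149 exceeded Rnf167, the next by median, in 83 libraries (mean log2 difference 1.29 ± 1.84, SD, two-sided paired permutation p = 1e-05, the smallest that 100000 resamples can give). The ratio of Rnf149 to Rnf167 ran from 0.209 to 15.1. Rnf167 exceeded Rnf13 in 50 libraries (0.07 ± 0.44, permutation p = 0.0708), Rnf13 exceeded Rnf130 in 67 (0.13 ± 0.59, permutation p = 0.0229), and Rnf130 exceeded Gm15832 in all but 6 libraries (1.94 ± 1.19, permutation p = 1e-05). The order was then taken within each set, a choice made after the data were seen. In the 79, Rnf149 was above Rnf167 in 77 libraries (2.31 ± 1.16, permutation p = 1e-05), and in the 36 it was below Rnf167 in 30 libraries (-0.95 ± 0.76, permutation p = 1e-05). In the 36 Rnf149 was also below Rnf13 in 29 libraries (-0.44 ± 0.57, permutation p = 6e-05) and below Rnf130 in 30 (-0.33 ± 0.46, permutation p = 8e-05). Rnf167 was below Rnf13 in 62 of the 79 libraries (-0.12 ± 0.24, permutation p = 1e-05) and above it in 33 of the 36 (0.51 ± 0.46, permutation p = 1e-05), so the pooled difference of these genes joins opposite ones. Rnf13 and Rnf130 did not differ beyond their spread within the 79 (0.14 ± 0.65, permutation p = 0.0640) or within the 36 (0.11 ± 0.47, permutation p = 0.176). Rnf149 was above Gm15832 in every library, by 2.84 to 105.3 times with a median of 15.9 times.

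Other relatives of the family were less abundant. Rnf43 had a median of 5.50 TPM, Rnf128 of 4.34 TPM and Znrf3 of 3.90 TPM. The relatives Znrf4, Rnf133, Rnf148 and Rnf150 had means below 1 TPM and were not tested. The known substrate Braf had a median of 10.5 TPM and the E2 gene Ube2d3, whose product serves many RING ligases, a median of 102.1 TPM.

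The first marker was Tgm4, the prostate transglutaminase secreted by differentiated luminal cells, mostly of the anterior lobe. It split the 79 libraries into 59 between 2901 and 16895 TPM and 20 between 0.64 and 2469 TPM. Rnf149 followed it closely. In the 59 libraries, Rnf149 ran from 37.4 to 339 TPM with a median of 152 TPM, and a doubling of Tgm4 went with nearly a doubling of Rnf149. The slope was 0.91 ± 0.05 (SE) log2 units of Rnf149 per log2 unit of Tgm4 (95% confidence interval 0.80 to 1.01, adjusted p = 3.98e-22, limma with Benjamini-Hochberg over all tested genes). Pearson's r was 0.921 and Spearman's rho 0.919 (n = 59, permutation p = 1e-05 for both), and r was 0.907 with the 2 libraries of most extreme Tgm4 left out. These 59 libraries hold all 50 with higher Rnf149 and 9 with lower Rnf149. Within the 50, a restriction chosen after the data were seen, r was 0.872 and rho 0.880 (permutation p = 1e-05 for both), and within the 9 r was 0.551 and rho 0.667 (n = 9, exact permutation p = 0.121 and 0.0589). By r with Tgm4, Rnf149 ranked 11 of 14619 genes. In bulk tissue, fewer cells of a type and less RNA per cell cannot be told apart.

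In the same 59 libraries the other members differed from Rnf149. Gm15832 was higher with Tgm4 (slope 0.51 ± 0.10, adjusted p = 8.2e-05, r = 0.547). Rnf130 was lower with Tgm4 (slope -0.51 ± 0.11, adjusted p = 0.000267, r = -0.515), ranging from 5.66 to 44.8 TPM. Rnf13 had a slope of 0.05 (95% confidence interval -0.10 to 0.19, adjusted p = 0.643) and Rnf167 of 0.06 (95% confidence interval -0.08 to 0.20, adjusted p = 0.540). Thus 3 of the 5 members passed the test, 2 upward and 1 downward, where 35.8% of all tested genes passed (19.5% upward and 16.3% downward). The calls of Gm15832 and Rnf130 were lost, among 10 alternatives to the scaling, filter, libraries and covariates, when the first 3 principal components were covariates (slope 0.53, adjusted p = 0.133, and slope -0.32, adjusted p = 0.130). That of Rnf149 was kept under all 10 alternatives run there, with a slope of 0.49 (adjusted p = 0.000373) when 3 principal components were covariates. Of these 10, 1 (sets found without members and markers) held the same libraries and could not differ. Rnf13 passed with stroma and immune indices (mean z-scores of 6 marker genes each) as covariates (adjusted p = 0.00255), and Rnf167 passed with them (0.0110) and under median-of-ratios scaling (0.0186). Of all called genes 54.5% had a positive slope, and 30.7% when TPM were rescaled without the 20 genes of largest share. The slope of the ratio of Rnf130 to Rnf149 was -1.42 ± 0.11, that of Rnf13 to Rnf149 -0.86 ± 0.07, that of Rnf167 to Rnf149 -0.85 ± 0.07 and that of Gm15832 to Rnf149 -0.40 ± 0.12. All 4 ratios passed, as did 99.1% of all genes set against Rnf149, so these calls are not particular to the paralogs.

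Other cell markers also moved with Rnf149, and their part in these results was not tested. The index of 7 luminal markers, which holds Tgm4, had r = 0.661 with Rnf149 in the 29 libraries with lower Rnf149 (rho = 0.430, permutation p = 0.00014 and 0.0211), and r = 0.390 without 2 of them. In the 50 with higher Rnf149 it had r = 0.198 (rho = 0.213, permutation p = 0.169 and 0.137), and r = 0.384 without 2 of them. Seminal vesicle markers, secreted by a gland that lies against the prostate, ran from 1.49 to 172504 TPM in sum with a median of 74.6 TPM, and split the 79 libraries into 69 and 10. Within the 69, their index had r = 0.524 with Rnf149 in the 23 libraries with lower Rnf149 (permutation p = 0.00994) and r = -0.503 in the 46 with higher Rnf149 (permutation p = 0.00039). In the 10 it had r = -0.430 (permutation p = 0.213). No basal index relation of Rnf149 had an unadjusted permutation p under 0.05.

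In the 20 libraries with lower Tgm4, Rnf149 stayed between 9.18 and 56.3 TPM with a median of 33.1 TPM while Tgm4 spanned the range from 0.64 to 2469 TPM. The slope of Rnf149 was 0.17 ± 0.04 and missed the threshold (adjusted p = 0.0622, where 0.219% of tested genes passed), although r was 0.733 and rho 0.771 (n = 20, permutation p = 0.00034 and 8e-05). Without the 2 farthest libraries r was 0.533. The call was made under another pseudocount (adjusted p = 0.0276), under median-of-ratios scaling (0.0473), with TPM rescaled without 20 genes (0.00654) and with stroma and immune indices as covariates (0.0174). No other member passed, with adjusted p from 0.468 to 0.811 and an unadjusted p under 0.05 for Gm15832 (0.0293) and Rnf167 (0.0419).

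Tgm4 was nearly absent from the 36 libraries, at or below 18.7 TPM in 34 libraries and at 195 and 2469 TPM in the other 2. Rnf149 was 25.9 and 49.2 TPM in those 2 and from 4.30 to 27.7 TPM in the rest. The slope of Rnf149 passed the test (0.22 ± 0.05, adjusted p = 0.0146, where 2.74% of tested genes passed, 79.3% of them upward and 92.4% under median-of-ratios scaling) with r = 0.570 and rho = 0.462 (n = 36, permutation p = 0.00053 and 0.00495). Without those 2 libraries the slope was 0.19 (95% confidence interval -0.09 to 0.47), r was 0.227 and the adjusted p 0.611, so the call was lost. It was also lost on ranks (adjusted p = 0.0589) and with stroma and immune indices as covariates (0.134). The other 4 members had slopes from -0.02 to 0.05 and none passed the test, nor an unadjusted p of 0.05.

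**Figure D3:**
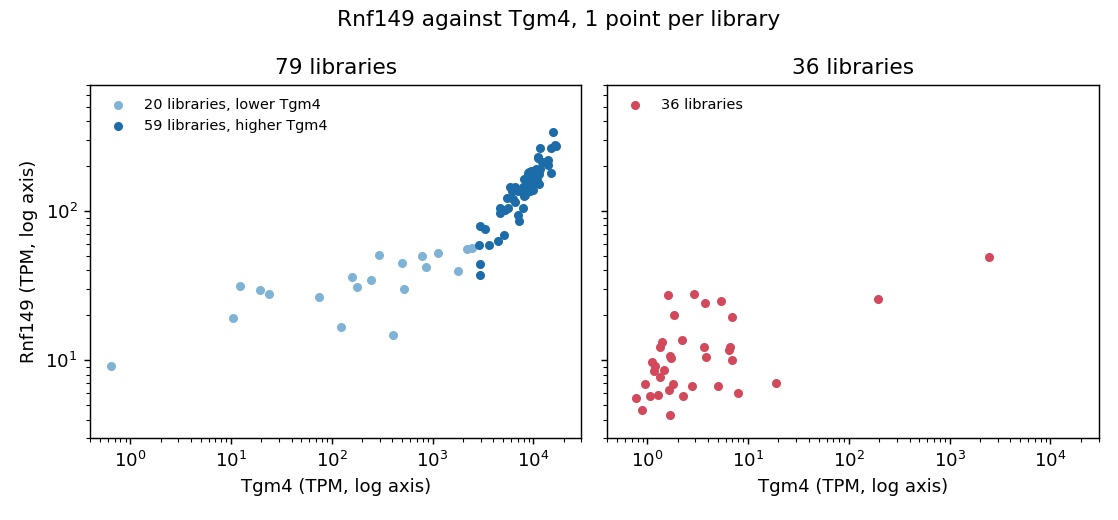
Rnf149 against Tgm4, both in TPM on log axes, 1 point per library, for the 79 libraries (left, light blue for the 20 with lower and dark blue for the 59 with higher Tgm4) and the 36 (right, red). In the 59 libraries Rnf149 rises with Tgm4 (r = 0.921), while on the right 2 libraries have far more Tgm4 than the other 34, and r is 0.570 with them and 0.227 without.

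The second marker was Mki67, a nuclear protein of cycling cells. In the 79 libraries it ran from 0.39 to 25.7 TPM with a median of 4.23 TPM. Rnf13, Rnf130 and Rnf167 were each higher where Mki67 was higher, and Rnf149 and Gm15832 did not pass the test. The slope of Rnf13 was 0.28 ± 0.04 (adjusted p = 1.65e-10, r = 0.664), that of Rnf130 0.35 ± 0.08 (adjusted p = 7.48e-05, r = 0.441) and that of Rnf167 0.24 ± 0.04 (adjusted p = 1.09e-07, r = 0.573). These 3 of the 5 members, with Rnf149 over all 79 given below, stand against 74.3% of all genes that passed. Of those genes 98.1% had a positive slope, and the median slope of all genes was 0.18. Under median-of-ratios scaling the median slope was -0.01 and 52.5% of called genes were positive, and after rescaling without 20 genes 80.3% were positive. Under median-of-ratios scaling Rnf130 (slope 0.09, adjusted p = 0.347) and Rnf167 (slope 0.01, adjusted p = 0.774) did not pass. With TPM rescaled without 20 genes they did not pass either (adjusted p = 0.101 and 0.0519). Gm15832 had a slope of -0.08 (adjusted p = 0.363), and of -0.26 under median-of-ratios scaling (adjusted p = 0.0227).

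The immune marker list moved with the same 3 genes. In the 79 libraries the index of 6 immune genes had r = 0.770 with Rnf13, 0.706 with Rnf130 and 0.584 with Rnf167 (rho 0.755, 0.735 and 0.679, n = 79, permutation p = 1e-05 for each, unadjusted, among 97 relations of members with marker lists). Over all libraries 5 of the 6 immune genes reached 1 TPM in at least 50% of libraries, the T cell gene Cd3e did not, and their summed level ran from 8.99 to 390 TPM with a median of 49.4 TPM. The smooth muscle and fibroblast index had r = 0.468 with Rnf13, 0.470 with Rnf130 and 0.481 with Rnf167 (permutation p of at most 2e-05). With both indices as covariates the slope of Rnf130 on Mki67 turned to -0.03 (adjusted p = 0.814). With 3 principal components as covariates all 3 slopes were negative, at -0.10 for Rnf13 (adjusted p = 0.0539), -0.36 for Rnf130 (0.00222) and -0.13 for Rnf167 (0.00822).

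Rnf149 was tested on Mki67 within its own split of the 79 libraries, which narrows the range of Rnf149 in each fit. Over all 79 together its slope was -0.16 ± 0.12 (95% confidence interval -0.40 to 0.08, adjusted p = 0.232). In the 29 with lower Rnf149 the slope was -0.03 ± 0.11 (adjusted p = 0.841, r = -0.0469), where 62.6% of genes passed. In the 50 with higher Rnf149 it was -0.14 ± 0.07 (adjusted p = 0.0609, r = -0.285, rho = -0.316), where 66.7% passed and only 0.670% of genes passed with a negative slope. The negative slope passed under median-of-ratios scaling (-0.31, adjusted p = 0.00769), with TPM rescaled without 20 genes (-0.23, 0.00215) and on ranks (0.0337).

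In the 36 libraries, where Mki67 ran from 20 to 144 TPM with a median of 83.5 TPM, Rnf149 was lower where Mki67 was higher. Its slope was -0.69 ± 0.17 (adjusted p = 0.00174), with r = -0.553 and rho = -0.560 (n = 36, permutation p = 0.00059 and 0.00044) and r = -0.621 without the 2 farthest libraries. Rnf130 had a slope of -0.50 ± 0.15 (adjusted p = 0.00788, r = -0.485). The other 3 members did not pass the test, with slopes of 0.10 for Gm15832, -0.11 for Rnf13 and -0.07 for Rnf167, although Rnf13 passed under median-of-ratios scaling (-0.25, adjusted p = 0.00326). In this set 44.9% of genes passed, 21.6% with a negative slope. Of the called genes 52% were positive, and 38.2% under median-of-ratios scaling. Both calls were lost with stroma and immune indices as covariates (adjusted p = 0.181 for Rnf149 and 0.500 for Rnf130), and both slopes were positive with 3 principal components as covariates (0.40 and 0.42, adjusted p = 0.583 and 0.467). The index of 6 proliferation markers, Mki67 among them, had r of -0.311 with Rnf149 and -0.117 with Rnf130 (permutation p = 0.0655 and 0.499). Its rho was -0.145 and -0.0747 (permutation p = 0.399 and 0.666), so the wider list did not show the relation seen with Mki67. In these libraries Rnf149 had r = 0.754 with the smooth muscle and fibroblast index and 0.728 with the immune index, and Rnf130 had r = 0.760 and 0.733 (permutation p = 1e-05 for each). All 6 smooth muscle and fibroblast markers reached 1 TPM in at least 50% of libraries, and their summed level ran from 1.73 to 3099 TPM with a median of 682 TPM over all libraries. The ratios of Gm15832, Rnf13 and Rnf167 to Rnf149 were higher with Mki67 (slopes 0.79, 0.58 and 0.62, adjusted p = 6.46e-05, 0.000168 and 0.00199), as 77.9% of genes passed, and that of Rnf130 was not called (0.19, adjusted p = 0.172). The call for Rnf167 was lost with stroma and immune covariates (adjusted p = 0.270).

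The third marker was Chga, a granule protein of neuroendocrine cells. It was at most 4.84 TPM in the 79 libraries, which it split into 72 at or below 0.81 TPM and 7 between 1.19 and 4.84 TPM. No member passed the test in the 72 on the deposited scale, where 0.869% of genes passed, and under median-of-ratios scaling Rnf13 passed with a slope of -0.37 (adjusted p = 0.0132). Rnf149 did not pass in its own split of them either (21 libraries, slope 0.55 ± 0.62, and 51 libraries, slope -0.52 ± 0.30), where 0% and 5.36% of genes passed. In the 72, 100% of called genes were positive, and 33% under median-of-ratios scaling, which moved the median slope of all genes from 0.24 to 0.00115. In the 7 libraries 0 of 14564 genes passed in limma and 368 had an unadjusted p under 0.05. The relation of Rnf149 with Chga there had r = 0.408 (n = 7, exact permutation p = 0.364). At levels this low, Chga gives little range against which to set a member. The index of 6 neuroendocrine markers, which holds Chga, split the 79 into 71 and 8. In the 71 it had r = 0.365 with Rnf13, 0.502 with Rnf130 and 0.494 with Rnf167 (permutation p = 0.0016, 2e-05 and 2e-05). With Gm15832 r was -0.212 (permutation p = 0.0772). With Rnf149 it was -0.483 in 50 of them with higher Rnf149 (permutation p = 0.0004) and 0.0839 in 21 with lower (0.717). Over all libraries 1 of the 6 markers reached 1 TPM in at least 50% of libraries.

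Over the 36 libraries Chga ran from 0.15 to 479 TPM. Only Rnf13 was called, with a slope of -0.11 ± 0.03 (adjusted p = 0.00824, where 34.1% of genes passed), r = -0.510 (n = 36, permutation p = 0.00162) but rho = -0.180 (permutation p = 0.291). Of the called genes 29.1% had a positive slope, 43.4% under median-of-ratios scaling and 56.7% after rescaling without 20 genes. Chga lay between 0.15 and 2.55 TPM in 4 of these libraries and at or above 21.2 TPM in the other 32. In those 4 libraries Rnf13 was 22.8 to 28.7 TPM, Rnf149 24.1 to 27.7 TPM and Rnf130 24.8 to 35.5 TPM. In the other 32, Rnf13 was 8.68 to 21.5 TPM, Rnf149 4.30 to 49.2 TPM and Rnf130 6.43 to 29.6 TPM. How many of all tested genes separate these 4 libraries from the 32 was not counted. Within the 32, a restriction chosen after the data were seen, Rnf13 had a slope of 0.07 (adjusted p = 0.408). Without those 4 libraries its call was thus lost and its slope positive. The call was also lost on ranks (adjusted p = 0.790) and without the 2 libraries farthest from the median (0.421), and its slope was 0.05 with 3 principal components as covariates (0.257). Rnf149 (-0.15, adjusted p = 0.0614), Rnf130 (-0.12, 0.0705) and Rnf167 (0.06, 0.0699) came close to the threshold. Both Rnf149 (0.0468) and Rnf130 (0.0475) passed with a pseudocount of 0.1. Over the 36, however, their rho with Chga was only 0.0219 and -0.000515. Within the 32 both were positive, with r of 0.228 and 0.365 (permutation p = 0.210 and 0.0402). Their rho there was 0.428 and 0.404 (permutation p = 0.0149 and 0.0224). Rnf167 passed under median-of-ratios scaling (0.00293), after rescaling without 20 genes (0.000219) and with 3 principal components (0.0153). Of all tested genes 3533 were called lower with Chga in the 36, against 29 within the 32 and 8 on ranks. The neuroendocrine index had r = 0.425 with Rnf167 in the 36 (rho = 0.515, permutation p = 0.0117 and 0.00171). With Rnf149, Rnf13 and Rnf130 its r was -0.434, -0.511 and -0.418, but its rho only -0.065, -0.132 and -0.000772.

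**Figure D4:**
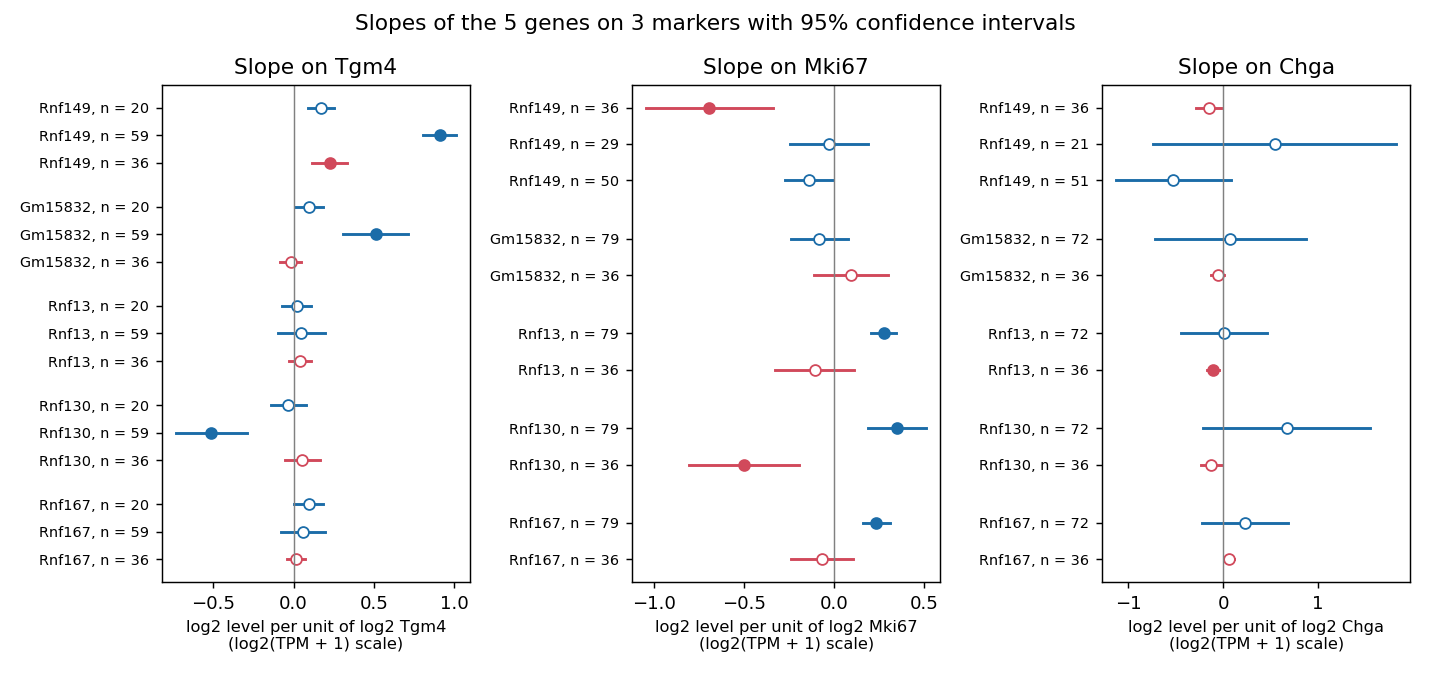
Slopes of each gene on Tgm4, Mki67 and Chga on the log2(TPM + 1) scale (points) with 95% confidence intervals (lines), in blue within the 79 libraries or their splits and in red within the 36, with n the number of libraries. Filled points have an adjusted p under 0.05 (limma), and sets under 10 libraries are not drawn. Rnf149 on Tgm4 in 59 libraries stands out at 0.91.

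How the members varied together also differed between the sets of libraries. Rnf149 and Gm15832, which share exonic bases, were correlated in the 29 libraries with lower Rnf149 (slope of Gm15832 on Rnf149 0.51 ± 0.14, adjusted p = 0.0430, r = 0.581) and in the 50 with higher Rnf149 (0.54 ± 0.18, adjusted p = 0.0332, r = 0.388). These compare with 1.91% and 16.8% of all genes called against Rnf149, of which 99.3% and 51.1% had a positive slope. Under median-of-ratios scaling 74.6% and 57.9% were positive, and after rescaling without 20 genes 94.9% and 24%. For the 36 libraries the slope was 0.15 ± 0.08 (adjusted p = 0.0997, r = 0.314). Both calls were lost with no filter on low genes (adjusted p = 0.0926 and 0.0587) and with 3 principal components (0.0750, and 0.443 with a slope of -0.30). The call in the 29 was also lost on ranks (0.247) and without 2 libraries (0.130).

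Rnf130 ran against Rnf149 in the 50 libraries with higher Rnf149 and with it in the 36. In the 50, Rnf149 ranged from 94.6 to 339 TPM and Rnf130 from 5.66 to 44.8 TPM, and the slope of Rnf130 was -0.62 ± 0.19 (adjusted p = 0.0185, where 8.21% of genes passed downward) with r = -0.421 and rho = -0.448 (n = 50, permutation p = 0.00236 and 0.00133, among 24 relations between members). In the 29 libraries the slope was -0.05 ± 0.20 (adjusted p = 0.904). In the 36, where Rnf149 ranged from 4.30 to 49.2 TPM and Rnf130 from 6.43 to 35.5 TPM, the slope was 0.67 ± 0.08 (adjusted p = 3.34e-08) with r = 0.811 and rho = 0.870 (permutation p = 1e-05 for both), where 61% of genes passed against Rnf149. Of these 77.1% were positive, and 60.4% under median-of-ratios scaling. Without the 4 libraries of low Chga it was 0.57 ± 0.10 (adjusted p = 3.57e-05). The negative slope in the 50 was not called with stroma and immune indices as covariates (-0.15, adjusted p = 0.484) and was 0.14 with 3 principal components (adjusted p = 0.509), and the positive one in the 36 was not called with 3 principal components (0.21, adjusted p = 0.353). The immune index had r = -0.410 with Rnf149 in the 50 (permutation p = 0.00313) and 0.728 in the 36. Whether the difference between the sets exceeds chance was not tested.

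**Figure D5:**
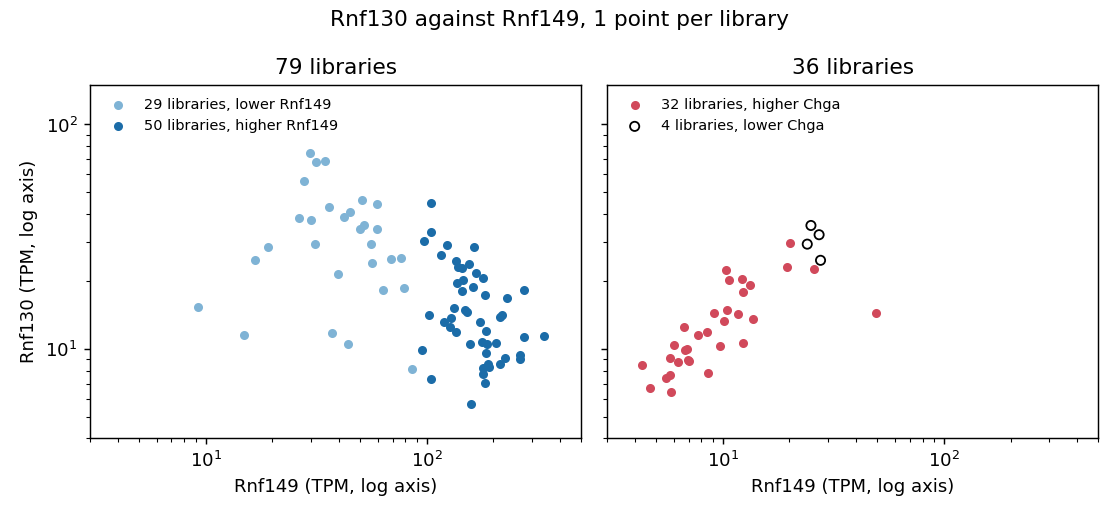
Rnf130 against Rnf149, both in TPM on log axes, 1 point per library, for the 79 libraries (left, light blue for the 29 with lower and dark blue for the 50 with higher Rnf149) and the 36 (right, open circles for the 4 with Chga at or below 2.55 TPM). Rnf130 falls with Rnf149 among the dark blue points (r = -0.421) and rises with it on the right (r = 0.811).

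Rnf13 and Rnf167 did not follow Rnf149 in the 79 libraries. In the 29 and the 50 the slopes were 0.11 and 0.03 for Rnf13 (adjusted p = 0.712 and 0.860) and 0.29 and 0.03 for Rnf167 (adjusted p = 0.391 and 0.897). In the 50, under median-of-ratios scaling both passed (0.09 each, adjusted p = 0.0163 for each). With stroma and immune indices as covariates both passed there too, with slopes of 0.31 for Rnf13 (adjusted p = 0.00366) and 0.24 for Rnf167 (adjusted p = 0.0439). In the 36 Rnf13 was higher with Rnf149 (0.36 ± 0.06, adjusted p = 1.22e-05, r = 0.704), and this was lost with 3 principal components (adjusted p = 0.141). The slope of Rnf167 in the 36 was 0.11 ± 0.07 (adjusted p = 0.164), and 0.21 within the 32 libraries of higher Chga (adjusted p = 0.0238).

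Rnf13, Rnf130 and Rnf167 varied together in the 79 libraries on the deposited scale. Rnf13 and Rnf167 had r = 0.841 and rho = 0.900 (n = 79, permutation p = 1e-05), Rnf13 and Rnf130 r = 0.634 and Rnf130 and Rnf167 r = 0.524. Against Rnf13, 88.3% of all genes passed and the median slope of all genes was 0.63, so the slope of Rnf167 of 0.83 ± 0.06 (adjusted p = 2.67e-21) is read against that shift. Under median-of-ratios scaling the median slope of all genes was 0.11, that of Rnf167 on Rnf13 0.20 (adjusted p = 0.0666) and that of Rnf130 on Rnf13 0.35 (adjusted p = 0.397). The slope of Rnf167 on Rnf130 was 0.27 ± 0.05 (adjusted p = 1.63e-06, where 82.2% of genes passed) and turned to -0.08 under that scaling (adjusted p = 0.0375). In the 36 libraries Rnf13 and Rnf130 had r = 0.688 (slope of Rnf130 1.10 ± 0.20, adjusted p = 1.87e-05, where 57.5% of genes passed), which was lost after rescaling without 20 genes (adjusted p = 0.0574) and within the 32 libraries of higher Chga (0.0606). Rnf13 and Rnf167 had r = 0.197 in the 36, and within the 32 the slope of Rnf167 was 0.56 (adjusted p = 0.0363). Gm15832 and Rnf130 had r = -0.357 in the 79 (slope -0.40 ± 0.12, adjusted p = 0.00665, where 28% of genes passed), and the slope was 0.01 with 3 principal components (adjusted p = 0.959). Gm15832 and Rnf13 in the 36 had a slope of 0.46 (adjusted p = 0.0978, where 5.68% of genes passed), and Rnf130 and Rnf167 there 0.14 (adjusted p = 0.121, where 63.4% passed).

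The genes whose levels were most like each member were ranked by r in the 79 libraries. For Rnf149 they were Man1a, a Golgi mannosidase that trims N-glycans, Gars, the glycyl-tRNA synthetase, and Gpt2, a mitochondrial alanine aminotransferase. Man1a had r = 0.907 with Rnf149 in the 29 libraries, 0.892 in the 50 and 0.867 in the 36. Gars and Gpt2 had r of 0.852 and 0.887 in the 29 and of 0.892 and 0.891 in the 50, and lower r of 0.634 and 0.549 in the 36. For Gm15832 the genes were Mertk, a receptor tyrosine kinase (r = 0.797), Trnt1, which adds the CCA end to tRNAs (0.785), and Gramd1b, a sterol transporter (0.779). Among the 36 libraries these r were between 0.0315 and 0.308.

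For Rnf13 the most similar genes were Tmx3, a disulfide isomerase of the endoplasmic reticulum (r = 0.949), Vamp3 (0.948) and the retromer subunit Vps26a (0.941), all between 0.628 and 0.691 in the 36. For Rnf130 they were the small GTPase gene Rhou (0.939), the calcineurin subunit Ppp3cc (0.927) and the mannosidase Man2b2 (0.925), with 0.763, 0.522 and 0.828 in the 36. For Rnf167 they were the spindle protein gene Numa1 (0.945), the adducin gene Add1 (0.943) and the chaperone gene Bag6 (0.942), and in the 36 these were only 0.200, 0.138 and 0.281. These are descriptions without a test, since the points share their libraries and their scaling.

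Of 23 annotated genes of the table that overlap Rnf149 or lie within 500 kb of it, 9 were tested. The highest r with Rnf149 in the 79 libraries was that of Creg2, a secreted glycoprotein gene from 39618406 to 39651474 (r = 0.785 in the 29 and 0.771 in the 50), which had r = -0.196 in the 36. Il1r2, the decoy receptor for interleukin 1, had r = 0.425, 0.610 and 0.703. Map4k4 (r from -0.180 to -0.0880) and Gm37091 (from -0.247 to 0.0991) stayed near 0. Rpl31, Tbc1d8 and Cnot11 were between -0.192 and 0.334 in the 79 and between 0.438 and 0.747 in the 36. The small nucleolar RNA gene Gm23722 in a Rnf149 intron had r from 0.150 to 0.336.

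Among the other PA-RING relatives, 3 of 7 were tested. In the 59 libraries Znrf3 was higher with Tgm4 (slope 0.22 ± 0.06, adjusted p = 0.00182), while Rnf43 (0.05, adjusted p = 0.574) and Rnf128 (-0.28, adjusted p = 0.0598) did not pass. This 1 of 3 stands against 35.8% of all genes called. With Mki67 in the 79 only Rnf43 passed (0.25 ± 0.03, adjusted p = 8.01e-10), where 74.3% of all genes did. With Chga in the 36, where 34.1% of all genes passed and 24.2% downward, Rnf43 (-0.79 ± 0.08, adjusted p = 1.18e-08) and Znrf3 (-0.24 ± 0.05, adjusted p = 0.000453) were lower, and Rnf128 was not called. These downward calls include the 4 libraries of low Chga, and within the other 32 only 29 of all tested genes were called lower. In the other comparisons with a marker none of the 3 passed in limma, and at an unadjusted p under 0.05 there was 1 in the 20 libraries for Tgm4, 1 in the 36 for Mki67 and 0 elsewhere.

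Of 9 substrate, E2 and adaptor genes, all tested, 4 were higher and 1 lower with Tgm4 in the 59 libraries (median slope 0.13, against -0.00147 for all genes), where 19.5% of all genes were higher and 16.3% lower. The higher ones were Braf (0.20 ± 0.06, adjusted p = 0.00541), Ern1 (0.20 ± 0.06, adjusted p = 0.00786), Ube2d2a and Ube2d3, and the lower one was the E2 gene Ube2d1 (-0.26 ± 0.07, adjusted p = 0.00246). With Mki67 in the 79, 7 were higher and 0 lower (median slope 0.22, against 0.18 for all genes), where 72.9% of all genes were higher. With Mki67 in the 36, 2 were higher, Braf (0.41 ± 0.12, adjusted p = 0.00662) and Ube2d1 (0.43 ± 0.10, adjusted p = 0.000823), where 23.3% of all genes were higher. With Chga in the 36, Braf was higher and Ern1 and Ube2d3 lower, where 9.94% of all genes were higher and 24.2% lower. The lower calls include the 4 libraries of low Chga, and within the other 32 only 29 of all tested genes were called lower.

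Of 11 endosome and lysosome genes, all tested, Rab5a and Vps35 were higher with Tgm4 in the 59 libraries (median slope of the list 0.05), where 19.5% of all genes were higher. With Mki67 in the 79, 10 were higher (median slope 0.22), where 72.9% of all genes were. In the 36 libraries 4 were lower and 2 higher with Mki67 (median slope -0.22, against -0.01 for all genes), where 21.6% of all genes were lower and 23.3% higher. The lower ones were the lysosomal genes Lamp1, Ctsd, Ctsb and Ctsl, led by Ctsd (-0.88 ± 0.23, adjusted p = 0.00251), and the higher ones Eea1 and Mcoln1. With Chga in the 36, 7 were lower and 1, Eea1, higher (median slope -0.09, against -0.03 for all genes), where 24.2% of all genes were lower and 9.94% higher. These 7 calls include the 4 libraries of low Chga too, and within the other 32 only 29 of all tested genes were called lower. In the 20 libraries for Tgm4, the 36 for Tgm4 and the 72 and 7 for Chga, 0 genes of either list passed in limma. At an unadjusted p under 0.05 these counts were 1, 0, 1 and 0 for the substrate, E2 and adaptor list and 0, 1, 0 and 0 for the endosome and lysosome list.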

How the data were processed

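The table holds 115 prostate libraries made by the authors with TruSeq RNA V2, which keeps no strand. All were used, although the study's methods count fewer prostates with RNA, a difference that could not be settled here. Reads were handled with CASAVA 1.8.2, Bowtie2 2.2.5 and RSEM 1.2.20 on GRCm38, per the submitters' processing notes. The authors deposited 1 table of TPM, in which RSEM divides shared reads among transcripts. TPM keeps no depth, so counting error is unknown.

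Values were taken as log2(TPM + 1), and genes averaging 1 TPM or more were tested. Sets of libraries were found by a 2-component mixture on the first principal component, and splits by a gene by the same rule (BIC lower by over 10, Ashman D over 2, at least 6 libraries). Slopes came from limma 3.58.1 (R 4.3.3), with Benjamini-Hochberg adjustment over all tested genes and a threshold of 0.05. Correlations have two-sided permutation p-values (100000 resamples, exact under 10 libraries), unadjusted, over 42 relations of members with markers, 24 between members and 97 with marker lists. Scripts ran under Python 3.11.15 with scipy 1.17.1 (permutation), scikit-learn 1.9.0 (mixtures), pandas 2.3.3 and numpy 2.4.6 (tables) and matplotlib 3.10.9 (plots). Named genes were the members, the 3 genes with the highest r to each member in the 79 libraries, neighbours within 500 kb of Rnf149 and members of 3 lists, of which 1 gene is not reported here. Members and lists were chosen with earlier results of these data known. In data simulated for Tgm4 in 59 libraries (14623 genes), limma recovered 50 of 50 slopes of 1 SD, 32 of 50 of 0.5 SD and 5 of 50 of 0.25 SD. Genes were drawn independently there, so the simulation does not cover shifts of composition or scaling that many genes share. Alternatives were a pseudocount of 0.1, no filter, TPM rescaled after removing the 20 genes of largest share, median-of-ratios scaling, ranks, stroma and immune indices or 3 principal components as covariates, and libraries left out. A further alternative found the sets without members and markers, which left every library in its set. A planned comparison of the proteins was not made, since no protein sequences were used here.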

Additional observations from a re-analysis of the deposited data

How the results depend on the processing

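Of 66 slopes of members, 20 were called as reported. Of 685 values under alternatives, 539 kept direction and side of the threshold, 70 changed sign with no call in either fit, 31 lost the call, 30 gained it and 15 changed sign with a call in at least 1 fit. Part of the 539 could not differ. The sets found without members and markers held the same libraries, so that alternative repeated each of the 66 fits. Leaving out W78022 likewise changed nothing where a fit did not hold that library. Rnf149 on Tgm4 in the 59 libraries was the 1 called slope that kept its call under every alternative run on it. With 3 principal components, slopes turned to 0.050 for Rnf13 and 0.12 for Rnf130 on Chga in the 36, to -0.10, -0.36 and -0.13 for Rnf13, Rnf130 and Rnf167 on Mki67 in the 79, and to 0.40 and 0.42 for Rnf149 and Rnf130 on Mki67 in the 36. They also turned to -0.30 and 0.14 for Gm15832 and Rnf130 on Rnf149 in the 50, to 0.0088 for Rnf130 on Gm15832 and to -0.12 for Rnf167 on Rnf13 in the 79. Median-of-ratios scaling turned Rnf13 on Chga in the 72 to -0.37 (adjusted p = 0.0132, a call not made on the deposited scale) and Rnf167 on Rnf130 in the 79 to -0.075. Stroma and immune covariates turned Rnf130 on Mki67 in the 79 to -0.026, and the 32 libraries alone turned Rnf13 on Chga to 0.072. The cause of these changes was not tested. Taken within each set, the mean log2 difference of Rnf149 over Rnf167 was -0.95 in the 36, that of Rnf167 over Rnf13 -0.12 in the 79 and 0.51 in the 36, and that of Rnf13 over Rnf130 0.14 and 0.11, the last 2 without a call. The restriction to 32 libraries, the order within each set and the crossing of the Tgm4 and Rnf149 splits were chosen after the data were seen. No pairing of samples was possible because there is only 1 group of them, and only genes of the same library were paired. TPM keeps no depth, so precision at low levels, as for Gm15832 and Chga, could not be set.

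In percent of tested genes, calls against Tgm4, Chga and Mki67 outside the splits by Rnf149, and against Rnf149, moved by over 1.5 times in count as follows. Without the filter more genes were tested, so a larger count can be a smaller percent. Against Tgm4 in the 20 libraries, the 0.219% called as reported became 0.726% with a pseudocount of 0.1, 0.418% with median-of-ratios scaling, 0.877% with rescaling without 20 genes, 0.0622% with no filter on low genes, 0% with ranks, 1.79% with stroma and immune covariates and 0.0891% with the 2 farthest libraries left out. Against Tgm4 in the 59, the 35.8% called as reported became 63.1% with median-of-ratios scaling, 55.3% with rescaling without 20 genes, 26% with no filter on low genes, 54.1% with stroma and immune covariates and 15.9% with 3 principal components. Against Tgm4 in the 36, the 2.74% called as reported became 0.089% with ranks, 0.938% with stroma and immune covariates, 0.698% with 3 principal components, 0.0274% with the 2 farthest libraries left out and 9.26% with the 32 libraries of higher Chga alone. Against Chga in the 72, the 0.869% called as reported became 5.91% with median-of-ratios scaling, 1.33% with rescaling without 20 genes, 0.76% with no filter on low genes and 0.568% with the 2 farthest libraries left out. Against Chga in the 36, the 34.1% called as reported became 1.26% with ranks, 20.2% with stroma and immune covariates, 8.52% with the 2 farthest libraries left out and 9.31% with the 32 libraries of higher Chga alone. Against Mki67 in the 79, the 74.3% called as reported became 42% with median-of-ratios scaling, 41.6% with rescaling without 20 genes and 21.1% with 3 principal components. Against Mki67 in the 36, the 44.9% called as reported became 39.7% with no filter on low genes, 28.5% with stroma and immune covariates and 2.16% with 3 principal components. Against Rnf149 in the 29, the 1.91% called as reported became 4.37% with median-of-ratios scaling, 4.83% with rescaling without 20 genes, 0.506% with ranks, 16.1% with stroma and immune covariates, 4.42% with 3 principal components and 0.623% with the 2 farthest libraries left out. Against Rnf149 in the 50, the 16.8% called as reported became 60.01% with median-of-ratios scaling, 54.6% with rescaling without 20 genes and 37.1% with stroma and immune covariates. Against Rnf149 in the 36, the 61% called as reported became 18.8% with stroma and immune covariates, 4.39% with 3 principal components and 37.5% with the 32 libraries of higher Chga alone. The remaining comparisons moved as well and are given by the lowest and highest percent over the alternatives. Within the splits by Rnf149 these were 0% and 0.0616% against Chga in the 21, 0.00684% (median-of-ratios scaling) and 5.36% in the 51, 4% and 67.9% against Mki67 in the 29 and 6.76% and 67.9% in the 50. Against Gm15832 they were 15.3% and 56.3% in the 79 and 0% (median-of-ratios scaling) and 9.58% in the 36, against Rnf13 19.05% and 90.2% in the 79 and 0% and 58.1% in the 36, and against Rnf130 20.3% and 85.4% in the 79 and 12.5% and 63.7% in the 36. With stroma and immune covariates, 9.5% of genes were called by their ratio to Rnf149 against Chga and 42.2% against Mki67 in the 36. Rescaling without 20 genes gave median levels of 154 for Rnf149, 10.8 for Gm15832, 58.8 for Rnf13, 45.5 for Rnf130 and 60.5 for Rnf167.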
